A study of Mus musculus with 6 samples.

Results

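Lipid-associated macrophages are the macrophages that gather around dying fat cells, take up lipid released from them and store and degrade it in an enlarged lysosomal compartment. In mouse fat they are known by a shared set of transcripts, and 10 of these genes are described here: the surface receptors Trem2, Clec7a and Cd84, the lysosomal proteins Gpnmb, Atp6v0d2 and Cd63, the tetraspanin Cd9, and the secreted proteins Spp1, Mmp12 and Lgals3. The genes were chosen by name as known transcripts of this cell state, with earlier results of these data already known. All 10 were found by symbol among the 35122 genes of the count table and had enough counts to be tested.

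Epididymal fat was digested with collagenase, and RNA of the adipocytes that floated was sequenced from 3 PU.1 fl/fl mice (control) and 3 AdipoqCre PU.1 fl/fl mice (aPU.1KO), 1 library per mouse. All were C57BL/6 males on standard chow, with an age of 10 to 11 months in the sample labels and a higher age in the study's text. Exon 5 of Spi1, the gene of the transcription factor PU.1, was flanked by loxP sites in both groups, and the aPU.1KO mice also carried Cre recombinase driven by the adiponectin (Adipoq) promoter, which is active in adipocytes and not in macrophages. The controls were littermates, but which mice shared a litter is not given in the sources used here, so mouse 1, 2 and 3 are names only and no pairs were formed.

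Library totals were between 20550252 and 24310144 counts in 5 libraries and 69283842 in control mouse 1. Adipoq, the defining adipocyte transcript, lay between 2448 and 3943 CPM (a gene's counts divided by the scaled library total, times 1e6) in the 6 libraries, so the labelled cell type was present throughout. Spi1 was at 24.3, 6.35 and 26.7 CPM in control mice 1, 2 and 3 and at 3.20, 1.22 and 4.17 CPM in aPU.1KO mice 1, 2 and 3. Counts were given per gene, so these levels do not check the loss of exon 5 itself. Of 12 general macrophage markers, all were tested, and their summed level was 437 to 1488 CPM in the control mice and 249.5 to 327 CPM in the aPU.1KO mice. The study's text names macrophages as a possible contaminant of the adipocyte fraction. In such bulk samples fewer macrophages, less RNA per macrophage and lower levels in the adipocytes themselves cannot be told apart. Which of these the values below reflect was not tested.

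All but 1 of the genes had a lower level in aPU.1KO than in control libraries at an unadjusted p under 0.05, and Cd63 was the exception. The median log2 fold change (aPU.1KO over control) of the 10 genes was -3.12, against 0.014 over the 13925 genes tested, with a range from -3.93 for Spp1 to -0.08 for Cd63, so all 10 were below 0 (48.0% of all genes). No member passed an adjusted p of 0.05 in edgeR's quasi-likelihood test (0 of 10, where 0.180% of all genes tested were called lower), 9 of 10 were lower at an unadjusted p under 0.05 (13.7% of all genes), and 3 of 10, Trem2, Clec7a and Cd84, were lower at an adjusted p under 0.1 (6.15% of all genes). No member was called higher by either test, against 0.0575% of all genes at an adjusted p under 0.05, 3.09% under 0.1, 11.9% at an unadjusted p under 0.05 and 3.51% by DESeq2. DESeq2, the test named in the study's methods, called 7 of 10 lower at an adjusted p under 0.05 (7.48% of all genes with an adjusted p), all but Cd63, Spp1 and Mmp12, while limma-voom called 0 lower at an adjusted p under 0.05 (0.244% of all genes) and 5 at an unadjusted p under 0.05 (14.5% of all genes).

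The groups did not overlap in 4 of the 10 genes, Trem2, Clec7a, Cd84 and Atp6v0d2, each lower in every aPU.1KO mouse (15.5% of all genes tested, with 16.7% higher in every aPU.1KO mouse). In the other 6 a single control library, that of mouse 2, lay below at least 1 aPU.1KO library. Control mice 1 and 3 were above every aPU.1KO mouse in 10 of 10 genes, and control mouse 2 was the lowest control in 10 of 10, which held for 43.7% of all genes tested. Control mouse 2 was also the lowest control in all general macrophage markers but Mertk. Lyz2, for example, was at 636, 143 and 653 CPM in control mice 1, 2 and 3. Among the aPU.1KO mice, mouse 2 was the lowest in 9 of 10 genes, against 37% of all genes tested. The highest and lowest control libraries differed by a median of 2.81 on the log2 scale over the members, against 0.244 over all genes tested. Without control mouse 2, edgeR called 8 of the 10 genes at an adjusted p under 0.05 (6.93% of all genes then tested), all but Cd63 and Mmp12, and without control mouse 1 it called 0 of all 14020 genes then tested, with 8 members lower at an unadjusted p under 0.05 (8.10% of those genes).

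**Figure D1:**
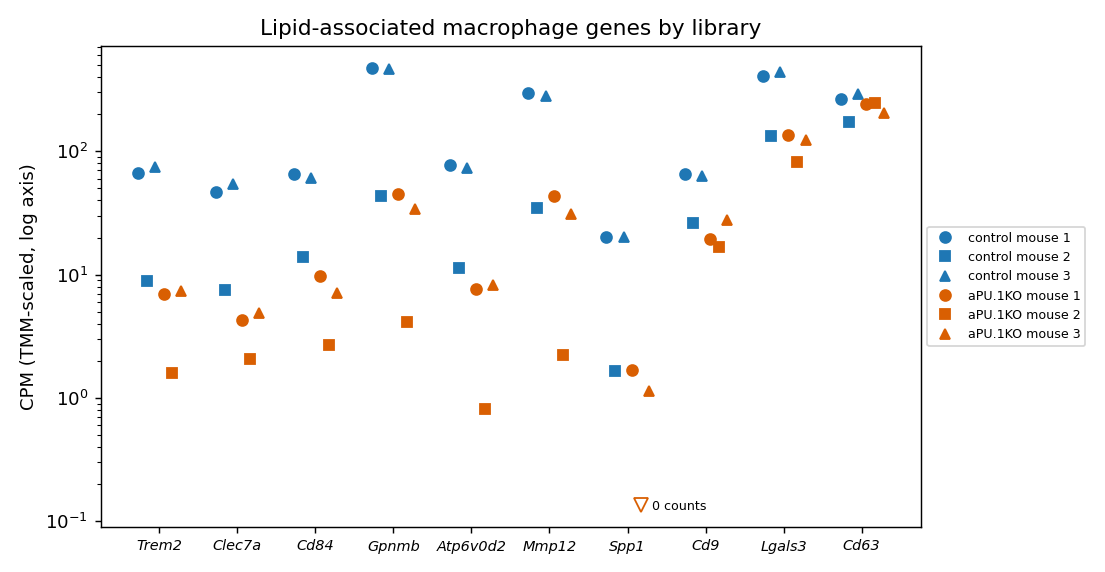
Level of the 10 genes in each library in CPM (log axis), with 1 symbol per mouse, control in blue and aPU.1KO in orange. Control mice 1 and 3 sit above every aPU.1KO mouse for every gene, control mouse 2 sits near the aPU.1KO mice, and the open triangle marks Spp1 in aPU.1KO mouse 2, with 0 counts, drawn at the level of 3 counts.

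PU.1 is an ETS-family factor that binds purine-rich sites built around GGAA. The 250 bases before the annotated start are shown for 5 members, because they are the stretches in which the searched letters were found for receptors (Trem2, Cd84), for secreted proteins (Spp1, Mmp12) and for the member with the smallest change (Cd63). They are RefSeq sequences of GRCm38.p6, written 5′ to 3′ on the strand of the gene, which is the plus strand for all 5: chr17:48346151-48346400 for Trem2, chr1:171839447-171839696 for Cd84, chr5:104434861-104435110 for Spp1, chr9:7344147-7344396 for Mmp12 and chr10:128909095-128909344 for Cd63. The Cd63 stretch lies inside the gene (128900989 to 128912822), before a RefSeq start downstream of the gene's first base. Capitals mark matches to GAGGAAGT or GGAAGT (ETS), CACGTG or CATGTG (E-box and M-box) and TGANTCA (AP-1), searched on both strands.
Trem2: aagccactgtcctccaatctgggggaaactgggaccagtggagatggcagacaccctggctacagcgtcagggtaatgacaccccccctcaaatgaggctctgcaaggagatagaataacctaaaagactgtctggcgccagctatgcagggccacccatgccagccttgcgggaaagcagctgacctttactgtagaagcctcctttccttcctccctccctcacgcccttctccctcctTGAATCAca
Cd84: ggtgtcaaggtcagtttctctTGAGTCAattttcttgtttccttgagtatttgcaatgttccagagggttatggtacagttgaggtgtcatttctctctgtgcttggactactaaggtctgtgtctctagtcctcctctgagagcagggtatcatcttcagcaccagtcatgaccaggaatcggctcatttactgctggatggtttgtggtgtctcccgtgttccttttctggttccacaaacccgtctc
Spp1: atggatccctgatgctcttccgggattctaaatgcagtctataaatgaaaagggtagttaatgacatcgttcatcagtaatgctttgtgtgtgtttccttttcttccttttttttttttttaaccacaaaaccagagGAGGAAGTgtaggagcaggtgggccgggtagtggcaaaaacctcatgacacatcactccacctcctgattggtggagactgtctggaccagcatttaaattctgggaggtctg
Mmp12: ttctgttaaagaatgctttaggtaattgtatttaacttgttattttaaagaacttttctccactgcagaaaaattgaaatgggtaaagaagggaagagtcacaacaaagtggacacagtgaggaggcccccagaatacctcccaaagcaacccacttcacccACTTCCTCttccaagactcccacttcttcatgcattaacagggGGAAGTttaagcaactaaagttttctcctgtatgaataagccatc
Cd63: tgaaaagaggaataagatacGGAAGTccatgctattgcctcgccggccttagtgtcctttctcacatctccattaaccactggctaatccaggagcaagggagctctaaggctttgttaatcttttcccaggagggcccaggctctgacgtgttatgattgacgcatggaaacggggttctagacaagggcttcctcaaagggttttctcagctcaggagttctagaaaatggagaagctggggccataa

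Counted from the base before the start as -1, the long ETS motif GAGGAAGT lay at -113 to -106 in Spp1 and, on the other strand, at -88 to -81 in Mmp12, and it holds the shorter GGAAGT within it; Mmp12 has a further GGAAGT at -45 to -40. GAGGAAGT was found in the window from 250 bases before to 50 after the start in 2 of the 9 members with a promoter in the table, or 2 of their 12 promoters since Spp1, Mmp12 and Clec7a have 2 listed starts each, against 3.20% of 32851 mouse promoters. GGAAGT was found in 4 of the 12 promoters, those of Spp1, Mmp12 (both starts) and Cd63, against 23.8% of promoters. A match was thus also present before the start inside Cd63, the gene whose level differed least. TGANTCA was found in 4 of the 12, those of Trem2, Gpnmb and Cd84 and the second of Mmp12, against 7.81%. CATGTG was found in Cd9 and at the second start of Mmp12 (14.2% of promoters), and CACGTG in 0 of the 12 (7.15%). These matches are letters in a window and do not show binding, and binding of PU.1 was not measured in these samples.

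The 3 receptors had non-overlapping groups and fold changes of similar size. Trem2, a receptor for lipids and lipoproteins (ENSMUSG00000023992; chromosome 17, 48346401 to 48354147, GRCm38), was at 66.5, 8.93 and 74.1 CPM in control mice 1, 2 and 3 and at 6.91, 1.58 and 7.44 CPM in aPU.1KO mice 1, 2 and 3. Control mice 1 and 3 were thus far above the rest, and control mouse 2 was above aPU.1KO mouse 3 by less than the gap among the controls. The log2 fold change was -3.24 (standard error 0.87, edgeR adjusted p = 0.0942, DESeq2 adjusted p = 0.0162).

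Clec7a encodes Dectin-1, the receptor for fungal beta-glucan (ENSMUSG00000079293; chromosome 6, 129461591 to 129472779). It was at 47.0, 7.49 and 54.6 CPM in the control mice and at 4.32, 2.08 and 4.93 CPM in the aPU.1KO mice (log2 fold change -3.28, standard error 0.74, edgeR adjusted p = 0.0786, DESeq2 adjusted p = 0.00242). Of the 10 genes Clec7a had the lowest adjusted p in both tests. Cd84, a self-binding receptor of the SLAM family (ENSMUSG00000038147; chromosome 1, 171839697 to 171890718), was at 66.0, 13.9 and 60.7 CPM in the control mice and at 9.76, 2.71 and 7.11 CPM in the aPU.1KO mice. Its log2 fold change was -2.86 (standard error 0.68, edgeR adjusted p = 0.0806, DESeq2 adjusted p = 0.00654).

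Transcripts of most genes through which these receptors signal had lower levels at unadjusted p under 0.05, and edgeR called 0 of them after adjustment. TREM2 has no signalling tail of its own and works through the adaptor DAP12, encoded by Tyrobp, which was at 62.3, 11.7 and 67.9 CPM in the control mice and 9.30, 5.11 and 9.66 CPM in the aPU.1KO mice (log2 fold change -2.57, standard error 0.64, edgeR adjusted p = 0.0868). Trem2 counts were 0.761 to 1.09 times those of Tyrobp in the control libraries and 0.743, 0.310 and 0.770 times in aPU.1KO mice 1, 2 and 3, a ratio that is not per length. Of 9 TREM2 partners, 8 were tested and all 8 had an unadjusted p under 0.05 with a value below 0. After adjustment 0 of them passed 0.05 in edgeR and 8 in DESeq2. Ms4a7, of the MS4A membrane family, had the largest log2 fold change among them at -2.75, and the sheddases Adam10 and Adam17, which cut TREM2 from the surface, had -0.33 and -0.55. Hcst, the DAP10 adaptor, was below the edgeR filter, at 1.47 CPM or less, and had a DESeq2 log2 fold change of -2.72 (DESeq2 adjusted p = 0.0825).

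In the list of 6 Dectin-1 signalling genes, 4 had lower levels at unadjusted p under 0.05, led by the kinase gene Syk (log2 fold change -2.16) and the phospholipase gene Plcg2 (-1.48), and 2, Bcl10 and Malt1, were not. Among 10 other C-type lectin receptors of myeloid cells 8 had lower levels at unadjusted p under 0.05 and 8 after adjustment in DESeq2 (p under 0.05), with the lowest log2 fold changes for Clec4d (-3.27) and Clec4n, which encodes Dectin-2 (-3.04). Clec4n was scarce, at 0.700 to 1.36 CPM in the control mice and 0.226 CPM or less in the aPU.1KO mice. Of 10 genes of the SLAM family and its adaptors 6 were tested and 6 were lower at an unadjusted p under 0.05, with Ly9 at -3.27 and the adaptor gene Sh2d1b1 at -3.05. None of the genes of these 3 lists passed an adjusted p of 0.05 by edgeR.

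The lysosomal members differed widely among themselves. Gpnmb, a transmembrane glycoprotein of lysosomes and phagosomes (ENSMUSG00000029816; chromosome 6, 49036546 to 49070929), was at 475, 43.2 and 461 CPM in the control mice and at 44.8, 4.11 and 34.2 CPM in the aPU.1KO mice. Control mouse 2 was about level with aPU.1KO mouse 1, and aPU.1KO mouse 2 was lower than every other library. The log2 fold change was -3.56 with a standard error of 1.10 (edgeR adjusted p = 0.114, DESeq2 adjusted p = 0.0315).

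Atp6v0d2 encodes the d2 subunit of the vacuolar proton pump (V-ATPase), which acidifies lysosomes (ENSMUSG00000028238; chromosome 4, 19876841 to 19922605). It was at 77.8, 11.4 and 73.9 CPM in the control mice and at 7.67, 0.814 and 8.24 CPM in the aPU.1KO mice, with no overlap of the groups (log2 fold change -3.30, standard error 0.93, edgeR adjusted p = 0.102, DESeq2 adjusted p = 0.0320). Atp6v0d1, the gene of the widely expressed d1 form of the same subunit, lay between 117 and 123 CPM in all 6 libraries (log2 fold change 0.03, standard error 0.06, edgeR adjusted p = 0.802). The ratio of Atp6v0d2 to Atp6v0d1 counts, not per length, was 0.659, 0.0972 and 0.614 in control mice 1, 2 and 3 and 0.0622, 0.00681 and 0.0689 in aPU.1KO mice 1, 2 and 3.

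Most other genes of the pump had log2 fold changes near 0, and Tcirg1 was the main exception. Of 22 other V-ATPase subunit and accessory genes 20 were tested, and their median log2 fold change was -0.02. Lower levels at unadjusted p under 0.05 were found for 3, Tcirg1 (-1.71), Atp6v1b2 (-0.54) and Atp6v1a (-0.36), and 2 were higher, Atp6v1g1 (0.29) and Atp6v1d (0.23), and after adjustment edgeR called 0 and DESeq2 called 2, Tcirg1 and Atp6v1b2. Tcirg1 encodes the a3 subunit found in osteoclasts and macrophages and was at 61.6, 17.1 and 68.2 CPM in the control mice and 13.6, 15.4 and 15.9 CPM in the aPU.1KO mice. The MiT/TFE factors drive lysosomal genes, and of the 4 tested Tfec (-2.52) and Mitf (-0.47) were lower at an unadjusted p under 0.05, while Tfeb had a log2 fold change of -0.29 and Tfe3 lay between 33.1 and 39.9 CPM in every library.

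Cd63, a tetraspanin of late endosomes and lysosomes in most cell types (ENSMUSG00000025351; chromosome 10, 128900989 to 128912822), was at 267, 174 and 289 CPM in the control mice and at 240.3, 246 and 205 CPM in the aPU.1KO mice. The groups overlapped, and the difference was within the spread among the controls (log2 fold change -0.08, standard error 0.19, edgeR adjusted p = 0.823). Cd9, a tetraspanin of the cell surface (ENSMUSG00000030342; chromosome 6, 125460266 to 125494791), was at 65.7, 26.1 and 63.1 CPM in the control mice and at 19.3, 16.8 and 27.7 CPM in the aPU.1KO mice (log2 fold change -1.28, standard error 0.37, edgeR adjusted p = 0.103, DESeq2 adjusted p = 0.00602). Aside from control mouse 2, which was below aPU.1KO mouse 3, the control mice were above the aPU.1KO mice in Cd9. Exons of Cd9 overlap those of Gm26728 on the other strand over 218 bases, and reads of the shared stretch cannot be told apart without strand.

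Of 19 other tetraspanin genes 18 were tested, with a median log2 fold change of 0.05. The leukocyte tetraspanins Cd53 (-2.39) and Cd37 (-1.94) were lower at an unadjusted p under 0.05, Tspan12 (0.49) and Tspan4 (0.34) were higher, and 14 were neither. Cd81, a partner of Cd9 at the cell surface, was at 306 to 361 CPM in the control mice and 264 to 327 CPM in the aPU.1KO mice (log2 fold change -0.16, edgeR adjusted p = 0.407).

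Of the secreted members, Spp1 and Mmp12 had large differences with the widest spread between mice. Spp1 encodes osteopontin, a secreted phosphoprotein that binds integrins and CD44 (ENSMUSG00000029304; chromosome 5, 104435118 to 104441050). It was at 20.2, 1.66 and 20.3 CPM in control mice 1, 2 and 3, at 1.68 and 1.14 CPM in aPU.1KO mice 1 and 3, and at 0 counts in aPU.1KO mouse 2, which allows up to 0.136 CPM (3 counts). Control mouse 2 and aPU.1KO mouse 1 could not be separated, at 38 and 33 counts. The log2 fold change was -3.93 with a standard error of 1.17 (edgeR adjusted p = 0.108, DESeq2 adjusted p = 0.119). It was -5.12 by limma-voom and ran from -4.66 to -3.34 with each mouse left out, the latter without aPU.1KO mouse 2. The part of the 0 in these shifts was not tested. Exons of Spp1 overlap those of Gm42793 on the same strand over 309 bases.

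Mmp12, the macrophage elastase (ENSMUSG00000049723; chromosome 9, 7344381 to 7369499), was at 296, 34.5 and 281 CPM in the control mice and at 43.7, 2.22 and 31.1 CPM in the aPU.1KO mice. Control mouse 2 lay below aPU.1KO mouse 1, and aPU.1KO mouse 2 lay far below all others. The log2 fold change was -2.99 (standard error 1.10, edgeR adjusted p = 0.154, DESeq2 adjusted p = 0.102). Across the 6 libraries the counts of Gpnmb were 1.03 to 1.86 times those of Mmp12, a far narrower range than that of either gene alone. Exons of Mmp12 overlap those of Mmp1b on the other strand over 157 bases.

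Lgals3 encodes galectin-3, a lectin that binds damaged lysosomes and cell-surface sugars (ENSMUSG00000050335; chromosome 14, 47367751 to 47386160). It was at 408, 134 and 438 CPM in the control mice and at 135, 82.6 and 124 CPM in the aPU.1KO mice (log2 fold change -1.52, standard error 0.44, edgeR adjusted p = 0.104, DESeq2 adjusted p = 0.00324). Control mouse 2 and aPU.1KO mouse 1 were level, and the other control mice were about 3-fold above them. A list of 8 relatives, other galectins and the galectin-3 binding protein gene Lgals3bp, had 6 tested genes, of which 0 were lower at unadjusted p under 0.05. Lgals12, the galectin of adipocyte lipid droplets, was higher at an unadjusted p under 0.05 with a log2 fold change of 0.66 (edgeR adjusted p = 0.0881), and Lgals1 had 0.15 (edgeR adjusted p = 0.421).

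Receptors and co-acting enzymes of the secreted members were lower in part. Of 9 osteopontin receptor genes 8 were tested, and 6 were lower at an unadjusted p under 0.05, with Cd44 at -2.00 (88.7, 33.1 and 76.4 CPM against 22.3, 7.32 and 20.1 CPM) and the integrin gene Itga4 at -1.80, while Itgb1 and Itgb5 were not. Of 10 metalloproteinase and inhibitor genes 7 were tested, and 5 were lower at an unadjusted p under 0.05, among them Mmp13 (-2.35) and the inhibitor gene Timp2 (-1.56). By edgeR 0 genes of either list passed an adjusted p of 0.05, while DESeq2 called 5 of the tested receptor genes and 5 metalloproteinase and inhibitor genes. One of these 5, the stromelysin gene Mmp3, was below the edgeR filter, at 252, 2 and 99 counts in control mice 1, 2 and 3 and 4, 0 and 1 counts in aPU.1KO mice 1, 2 and 3 (DESeq2 log2 fold change -4.94, DESeq2 adjusted p = 0.00337, a size that rests on few counts).

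**Figure D2:**
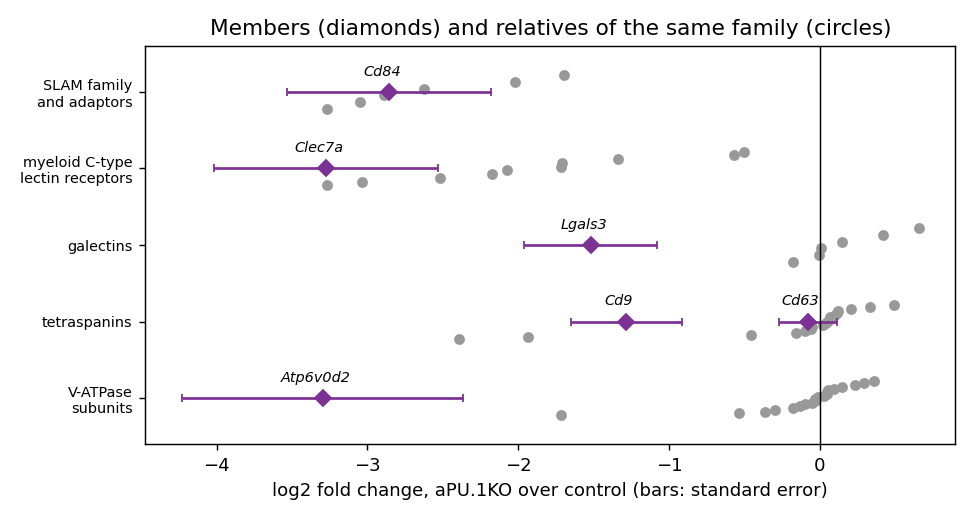
Log2 fold change (aPU.1KO over control) of members, as diamonds with bars of 1 standard error, and of their tested relatives, as circles. Atp6v0d2 (-3.30) lies apart from 20 V-ATPase genes with a median of -0.02 and Lgals3 (-1.52) from 6 galectin genes. The tested relatives of Clec7a and Cd84 are also below 0, with Clec7a (-3.28) at the low end of its family, next to Clec4d (-3.27), and Cd84 within its own.

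A wider list of 26 other genes linked with lipid-laden macrophages had a median log2 fold change of -0.33. At unadjusted p under 0.05, 9 had lower and 3 had higher levels, and by edgeR 0 passed an adjusted p of 0.05, against 6 lower and 2 higher by DESeq2. The cathepsin S gene Ctss (-2.88) and Itgax, the CD11c integrin gene (-2.85), had the largest differences below 0. Among the most abundant genes of the list the direction was mixed. Fabp4, the adipocyte fatty acid binding protein gene, had 0.44, Lpl 0.33, Cd36 0.10 and Apoe 0.51, whereas the cathepsin genes Ctsb and Ctsd had -0.35 and -0.31. Psap, the gene of the lysosomal precursor prosaposin, was lower in every aPU.1KO mouse (log2 fold change -0.68, edgeR adjusted p = 0.115, DESeq2 adjusted p = 0.0159). Fabp4 and Apoe were the genes with the largest values above 0 at an unadjusted p under 0.05.

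General macrophage markers were lower too, by a smaller median. Of the 12, 11 had lower levels at unadjusted p under 0.05, and 0 passed an adjusted p of 0.05 by edgeR, against 11 by DESeq2, and the median log2 fold change was -2.09. Csf1r, the receptor for the macrophage growth factor CSF1, was at 140.2, 53.6 and 128 CPM in the control mice and at 29.2, 23.4 and 34.7 CPM in the aPU.1KO mice (log2 fold change -1.89, standard error 0.36, edgeR adjusted p = 0.0749). Mertk, a receptor for dying cells, was the exception at 0.06.

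**Figure D3:**
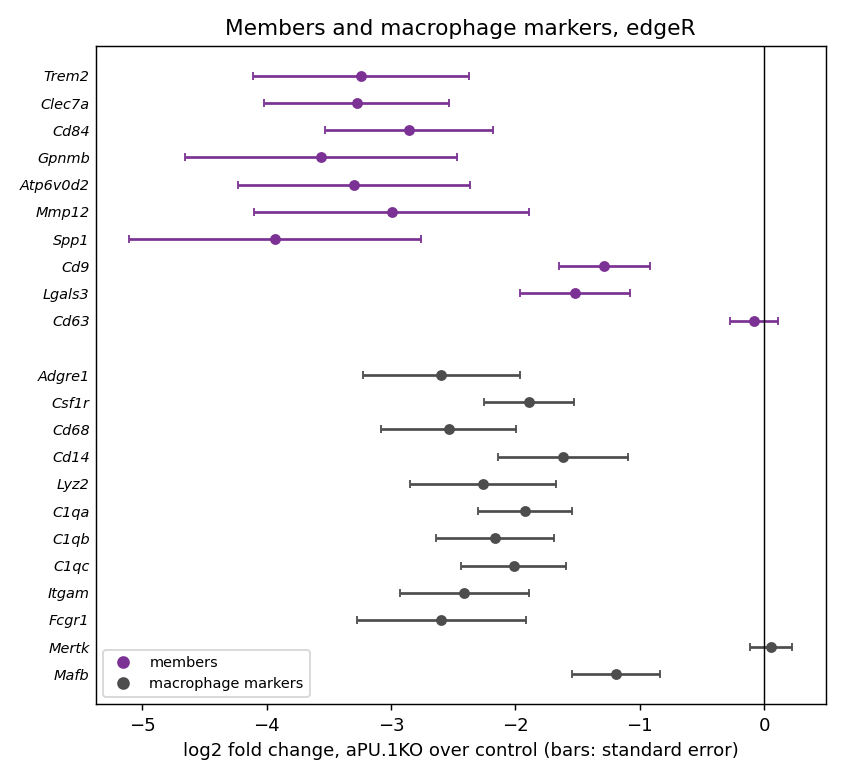
Log2 fold change (aPU.1KO over control, edgeR) of the 10 members and of 12 macrophage markers, with bars of 1 standard error. The members run from -3.93 (Spp1) to -0.08 (Cd63) and the markers from -2.60 (Adgre1) to 0.06 (Mertk).

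To set the members against the macrophage RNA of the same library, their counts were divided by the summed counts of the 12 macrophage markers, of which Lyz2 made up 24.9 to 44.9%. On this scale 7 members were lower in aPU.1KO and 3, Cd9, Cd63 and Lgals3, were higher, with a median difference of -1.22 on the log2 scale. The denominator was itself lower in every aPU.1KO mouse, so that over all 13925 genes tested the median difference was 1.75 and 3.18% of genes were below 0. The groups did not overlap in 4 members, 2 lower (0.804% of all genes) and 2 higher (74.0% of all genes), and which members these were changed with the denominator. Per 1000 macrophage marker counts, Clec7a was at 31.6, 17.2 and 37.6 counts in control mice 1, 2 and 3 and at 13.2, 8.33 and 16.0 in aPU.1KO mice 1, 2 and 3, a log2 difference of -1.17. Cd84 was at 44.3, 31.9 and 41.8 in the control mice and 29.8, 10.9 and 23.1 in the aPU.1KO mice, a log2 difference of -0.99.

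Lgals3 and Cd63 were higher on the same scale, as most genes were. Lgals3 was at 275, 306 and 301 per 1000 macrophage marker counts in the control mice and at 414, 331 and 404 in the aPU.1KO mice, a log2 difference of 0.38, and Cd63 was at 179.7, 398 and 199 against 735, 986 and 665. The log2 difference of Cd63, 1.69, was close to the median of all genes, since its CPM hardly differed and the denominator did. In an exact two-sided permutation test of 3 against 3 libraries, in which the smallest p is 0.1, these 4 members had that p (adjusted over the 10 ratios, 0.25), so no ratio could pass 0.05. With the geometric mean, Lgals3 and Cd84 overlapped (exact permutation p = 0.2 for each) and Cd9 did not, and with Csf1r alone Clec7a (exact permutation p = 0.3) and Cd84 (exact permutation p = 0.2) overlapped and Cd9 did not.

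In the remaining members the groups overlapped. Trem2 was at 44.7, 20.5 and 51.0 per 1000 macrophage marker counts in the control mice and at 21.1, 6.34 and 24.2 in the aPU.1KO mice, so that control mouse 2 lay among the aPU.1KO mice (log2 difference -1.27, exact permutation p = 0.3). Gpnmb was at 319.5, 98.9 and 317 against 137, 16.5 and 111, and Mmp12 at 199, 79.0 and 193 against 134, 8.88 and 101. Atp6v0d2 was at 52.3, 26.1 and 50.8 against 23.5, 3.26 and 26.8, and Cd9 at 44.2, 59.7 and 43.4 against 59.1, 67.2 and 89.9. The aPU.1KO mouse 2 library was the lowest in Trem2, Gpnmb, Mmp12 and Atp6v0d2, and without it the median log2 difference of the 10 members was -0.62 and that of Mmp12 -0.32. Without that library Trem2 was at -0.67, Cd84 at -0.57 and Clec7a at -0.90, while Cd9, Cd63 and Lgals3 stayed above 0.

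**Figure D4:**
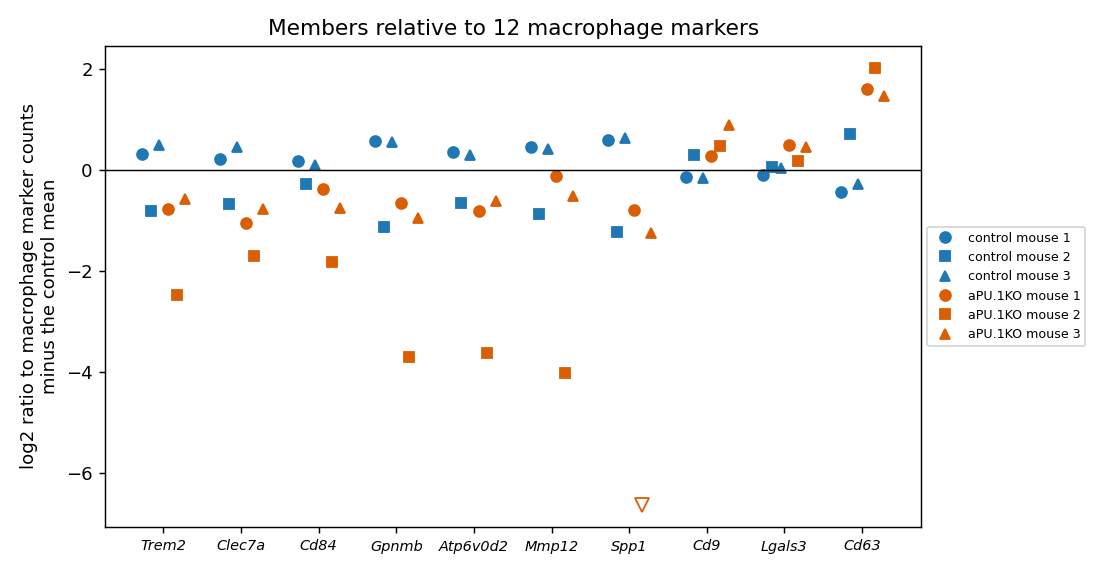
Log2 ratio of each member to the summed counts of 12 macrophage markers in the same library, minus the mean of the control libraries. Clec7a and Cd84 have every aPU.1KO mouse below every control mouse, Lgals3 and Cd63 have every one above with this denominator, as 74.0% of all genes do, and the open triangle is Spp1 in aPU.1KO mouse 2, with 0 counts and a value set by the pseudocount of 0.5.

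Markers of perivascular resident macrophages, another population of fat tissue, were mixed in their distribution over the mice. Lyve1 was at 3.64, 6.79 and 0.912 CPM in control mice 1, 2 and 3 and at 1.93, 5.52 and 1.99 CPM in the aPU.1KO mice (log2 fold change -0.25, edgeR adjusted p = 0.848). Cd163, the haemoglobin scavenger receptor, was at 11.1, 23.9 and 2.97 CPM in the control mice and at 11.3, 19.03 and 15.8 CPM in the aPU.1KO mice. In both genes control mouse 2 was the highest control and control mouse 3 the lowest, and aPU.1KO mouse 2 was the highest aPU.1KO mouse, whereas those 2 mice were the lowest of their groups in Trem2, Gpnmb, Atp6v0d2 and Mmp12. Of the 8 markers, control mouse 2 was the highest control in 5 and the lowest in 3, Mrc1, Folr2 and Pf4, which were also lower in every aPU.1KO mouse. Cbr2, with control mouse 2 the highest control, was lower in every aPU.1KO mouse too, by a small margin. It was at 13.5, 15.2 and 12.1 CPM in the control mice and 8.54, 12.07 and 9.71 CPM in the aPU.1KO mice (log2 fold change -0.43, edgeR adjusted p = 0.170). Folr2, a folate receptor gene, had a log2 fold change of -1.64 (edgeR adjusted p = 0.0729) and Pf4, the platelet factor 4 gene, -1.27 (edgeR adjusted p = 0.0894). Mrc1, the mannose receptor, fell from 95.5, 56.1 and 72.3 CPM to 23.0, 22.1 and 24.2 CPM (log2 fold change -1.70, standard error 0.19, edgeR adjusted p = 0.0389). In this list 7 were tested, 4 had lower levels at unadjusted p under 0.05, and their summed level was 145 to 208 CPM in the control mice and 65.9 to 106 CPM in the aPU.1KO mice.

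**Figure D5:**
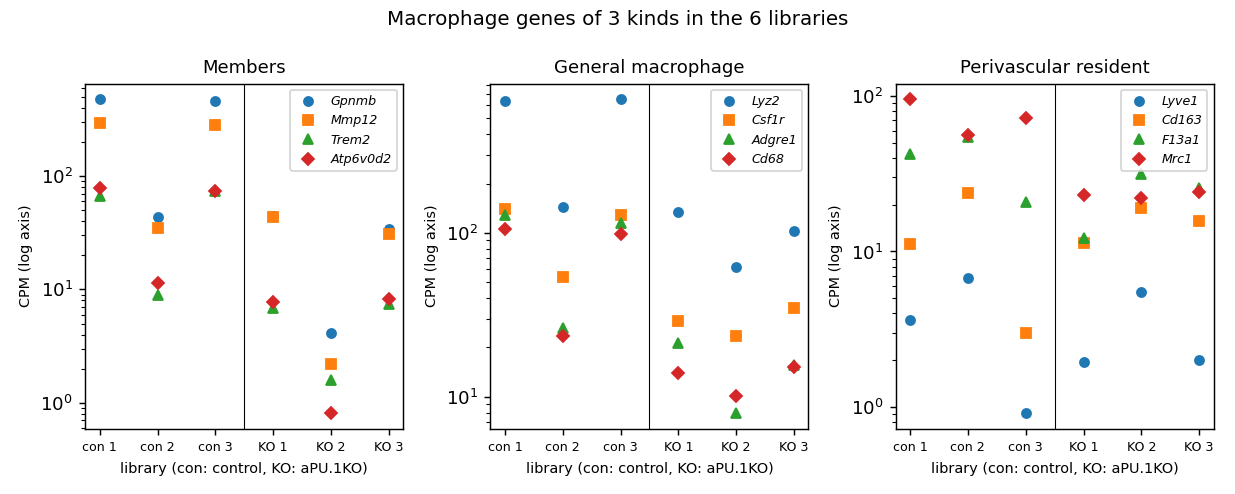
CPM (log axis) in the 6 libraries of 4 members, 4 general macrophage markers and 4 markers of perivascular resident macrophages. The members are high in control mice 1 and 3 only, and the general macrophage markers are also highest in those mice. Lyve1 and Cd163 are higher in control mouse 2 than in the other control mice, and Mrc1 separates the groups.

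Other cell types were followed by fixed marker lists. Summed levels in control against aPU.1KO mice were 1.71 to 3.85 against 0.864 to 1.72 CPM for 6 T and NK cell markers, 2.71 to 3.65 against 1.37 to 3.32 CPM for 4 B cell markers, 14.8 to 30.7 against 7.67 to 13.6 CPM for 5 monocyte markers, 17.5 to 21.6 against 14.1 to 18.9 CPM for 7 dendritic cell markers, 19.1 to 39.2 against 11.4 to 18.3 CPM for 6 neutrophil markers and 17.7 to 19.2 against 8.15 to 14.3 CPM for 4 mast cell markers. The neutrophil-defining Retnlg was at 0 counts in every library. Stromal lists were 1286 to 1688 against 701 to 1012 CPM for 7 progenitor markers, 572 to 828 against 348 to 738 CPM for 8 endothelial markers (Pecam1 at a log2 fold change of -0.53) and 4.64 to 16.8 against 6.58 to 8.54 CPM for 6 mesothelial markers (Upk3b at -0.68), and 6 epithelial markers summed to 1.75 CPM or less. The 8 adipocyte markers summed to 16740.4 to 18677 CPM in the control mice and 19861.8 to 24368.7 CPM in the aPU.1KO mice, 7 were higher in every aPU.1KO mouse and Lep was lower in every one. At unadjusted p under 0.05, 6 had higher levels, with Cfd at a log2 fold change of 1.71 and Retn at 1.22, and 0 passed an adjusted p of 0.05 by edgeR, against 6 higher by DESeq2. Several members are also expressed outside macrophages, Cd9, Cd63 and Lgals3 most widely, and the part of these cell types in the members' levels was not tested.

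By level per kilobase of exon, the scale on which genes can be compared, Lgals3 stood first among the members in the control mice at 176 ± 90.3 CPM per kb (SD, n = 3). Cd63 followed at 66.1 ± 16.6, Gpnmb at 50.1 ± 37.7, Mmp12 at 28.2 ± 20.3, Cd9 at 25.3 ± 10.9 and Atp6v0d2 at 20.01 ± 13.7 CPM per kb. Clec7a at 13.8 ± 9.59, Trem2 at 10.1 ± 7.20, Spp1 at 8.52 ± 6.51 and Cd84 at 7.47 ± 4.57 CPM per kb were the lowest, and the libraries of neighbours in this order overlapped throughout. In the aPU.1KO mice Cd63 at 62.6 ± 6.08 and Lgals3 at 61.4 ± 15.0 CPM per kb came first, Cd9 at 10.4 ± 2.79 was the third, and the other 7 were at 4.25 CPM per kb or less. Here the libraries of Lgals3 and Cd9 did not overlap, nor did those of Cd9 and Gpnmb. With the longest annotated transcript as the length Gpnmb passed Cd63 in the control mice, at 88.2 against 84.1 CPM per kb, Cd84 moved above Trem2 and Spp1, which was then the lowest, and Lgals3 passed Cd63 in the aPU.1KO mice, at 80.4 against 79.6 CPM per kb. The aPU.1KO order of Clec7a and Cd84 also turned.

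Among all other genes tested, those whose pattern over the 6 libraries was closest to Trem2 were found by the root mean square difference of centred log2 CPM, as a description. The closest was Hk3, a hexokinase of myeloid cells, at 27.9, 4.20 and 28.9 CPM in the control mice and 2.44, 0.588 and 3.79 CPM in the aPU.1KO mice, with a difference of 0.175. It was followed by Tlr13, a Toll-like receptor for bacterial RNA, Ctss, Itgax, Mpeg1, which encodes the pore-forming perforin-2, the prostaglandin D synthase gene Hpgds, Myo1f, Rnf128, Cd300lb and the leukocyte integrin gene Itgb2, at 0.206 to 0.290. Of the members, Clec7a (0.349), Cd84 (0.391), Atp6v0d2 (0.416) and Gpnmb (0.495) ranked between 17 and 40 of 13924 genes, Mmp12 (0.670) ranked 92 and Spp1 (0.995) ranked 273, and Lgals3 (1.05), Cd9 (1.21) and Cd63 (1.83) ranked between 330 and 3550. All of these distances are over the same 6 libraries, in which Trem2 was highest in control mice 1 and 3 and lowest in aPU.1KO mouse 2. The weight of each library in them was not tested.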

How the data were processed

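The deposited table holds estimated counts per gene, made by the authors with Salmon (option validateMappings) and summed from transcripts, and deposited as whole numbers without normalization. The processing notes name Salmon, FastQC and GRCm38, and the Salmon version and annotation are not given in the sources used here. Symbols and coordinates came from GENCODE M21 (35102 of 35122 identifiers matched). Columns were matched to mice by label. Between replicate libraries the chi-square statistic over its degrees of freedom was at least 20.4, so none was a duplicate. Libraries of 20550252 to 69283842 counts limit precision for weakly expressed genes.

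Genes were filtered with filterByExpr, scaled by TMM and compared with glmQLFit and glmQLFTest in edgeR 4.0.16 (R 4.3.3), with Benjamini-Hochberg adjustment over 13925 genes, 3 against 3 mice. Log2 fold changes are of aPU.1KO relative to control, and CPM uses TMM-scaled sizes. In simulated data of 13925 genes edgeR called 43 of 51 genes changed by -3 on the log2 scale and 30 of 51 changed by -1, with 13 of 13725 unchanged genes called. These rates are for genes of typical spread and do not describe the members, whose control libraries spanned a median log2 range of 2.81 against 0.244 over all genes. Ratios to macrophage markers used a pseudocount of 0.5 counts and exact permutation tests. Likeness to Trem2 used log2 CPM with a prior count of 2. Lists were described by counts and medians, with no set test.

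The members and lists were chosen with earlier results of these data known. The genes named are the members, Spi1, and of each pathway list the 2 with the largest log2 fold change in each direction at an unadjusted p under 0.05, certain direct partners (Tyrobp, Atp6v0d1, Cd81, Lgals1, Cd44, Clec4n), one marker for each of several cell types and the 10 genes closest to Trem2. Other genes were named after their values were seen. Alternatives were RLE and upper quartile scaling, 2 other filters, DESeq2 1.42.0, limma-voom (limma 3.58.1), robust dispersion, legacy = FALSE, control mouse 1 thinned to the median depth, leaving out each mouse, other macrophage denominators and the longest transcript as length. Figures were drawn with matplotlib 3.10.9.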

Additional observations from a re-analysis of the deposited data

How the results depend on the processing

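The median log2 fold change of the 10 members stayed between -3.14 and -3.09 under other scalings, filters, tests, dispersions and depth, and between -3.62 and -2.64 with each mouse left out. The count of members lower after adjustment (p under 0.05), which was 0 with edgeR, was 7 by DESeq2 and ran from 0 to 8 with each mouse left out, with 8 without control mouse 2 and 0 without any other mouse. The count at an unadjusted p under 0.05, 9 by edgeR, was 5 by limma-voom and 8 to 10 with each mouse left out. The cause of these differences between tests was not tested. The sign of Cd63 turned when control mouse 3 was left out (0.056) or aPU.1KO mouse 3 was (0.0011), with a range of -0.28 to 0.056. The median difference relative to macrophage markers was -1.11 with the geometric mean of the markers and -1.18 with Csf1r alone, under which 3 of the 4 members with separate groups (Clec7a, Cd84, Lgals3) overlapped in at least 1 case, and -1.59 to -0.62 with each mouse left out. No paired analysis was possible because the labels give the mice of the 2 groups different numbers and tie no control mouse to an aPU.1KO mouse. With 3 mice a group, p-values set a difference against the spread between these few mice. In edgeR, DESeq2 and limma-voom the spread of each gene is also moderated by that of the other genes.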

Other observations

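Multinucleated, bone-resorbing osteoclasts share Atp6v0d2, Gpnmb and Spp1 with lipid-associated macrophages, and 5 further genes of cell fusion and resorption were followed. Dcstamp, which is needed for fusion, was at 3.13, 1.18 and 2.30 CPM in the control mice and 0.457, 0.316 and 0.426 CPM in the aPU.1KO mice, with groups that did not overlap (log2 fold change -2.48, standard error 0.44, edgeR adjusted p = 0.0725, DESeq2 adjusted p = 0.000253). Ctsk, the cathepsin K gene, was at 62.4, 18.7 and 59.2 CPM in the control mice and 15.2, 8.32 and 16.1 CPM in the aPU.1KO mice (log2 fold change -1.83, edgeR adjusted p = 0.0909). Ocstamp, the other fusion gene tested, had a log2 fold change of -0.41 with overlapping groups, Oscar was too low to test and Calcr, the calcitonin receptor gene that marks osteoclasts, was at 0 counts in every library. Acp5, the tartrate-resistant acid phosphatase gene used to stain osteoclasts, was at 202, 212 and 234 CPM in the control mice and 306, 320 and 234 CPM in the aPU.1KO mice (log2 fold change 0.41, standard error 0.14, edgeR adjusted p = 0.128), opposite in sign to Dcstamp and Ctsk.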
